A study of Mus musculus with 6 samples.

Results

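The genes described here encode the T cell receptor complex and the proteins that act directly beneath it. They are the CD3 subunits Cd3e, Cd3d, Cd3g and Cd247, the coreceptors Cd4, Cd8a and Cd8b1, the kinases Zap70 and Lck, and the adaptor Lat. A gene was taken through the Affymetrix probe set that carried its symbol and no other, and 9 of the 10 genes had such a probe set, out of 19938 genes on the array that did. Lck has none in the gene table and was not analysed here. The study compared C1498 cells, a mouse line of C57BL/6J background that the labels call acute myeloid leukemia, after 48 h with the PARP-1 inhibitor PJ34 at 20 μM or with PBS. There were 3 Mouse Gene 1.0 ST arrays of total RNA in each group, and all arrays came from this single cell line. The paper calls the array experiments independent, while the labels do not describe the cultures behind the 3 samples of a group. The p-values measure the spread between these samples.

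In T cells, the antigen-binding receptor chains have no signalling tails of their own and rely on the CD3 subunits, whose tails carry tyrosine motifs. The kinase LCK, brought in by the coreceptor CD4 or CD8, phosphorylates these motifs. ZAP70 then docks on them and phosphorylates LAT, the scaffold on which the downstream enzymes assemble. Cells of the myeloid lineage do not assemble this complex, although CD4 can also be found on some of them.

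Cd3g, Cd3d and Cd3e are neighbours in the mouse genome, and the bases before their starts are shown so that the 3 members of this gene cluster can be read side by side. The 250 bases that end at each RefSeq start (GRCm38.p6) are printed 5′ to 3′ on the strand of the gene, at chr9:44980432-44980681 on the minus strand for Cd3g, chr9:44981536-44981785 on the plus strand for Cd3d and chr9:45009612-45009861 on the minus strand for Cd3e. Capitals mark matches, on either strand, to the ETS core AGGAAG, the RUNX motif TGTGGT, the E-box CAGNTG or the TATA box TATAAA. Only these strings were searched and counted, and other forms of the motifs are left unmarked.
Cd3g: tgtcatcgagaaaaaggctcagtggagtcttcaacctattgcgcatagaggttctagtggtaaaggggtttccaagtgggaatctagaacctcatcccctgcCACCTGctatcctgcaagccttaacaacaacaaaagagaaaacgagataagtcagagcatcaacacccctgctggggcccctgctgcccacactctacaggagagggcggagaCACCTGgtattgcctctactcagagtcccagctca
Cd3d: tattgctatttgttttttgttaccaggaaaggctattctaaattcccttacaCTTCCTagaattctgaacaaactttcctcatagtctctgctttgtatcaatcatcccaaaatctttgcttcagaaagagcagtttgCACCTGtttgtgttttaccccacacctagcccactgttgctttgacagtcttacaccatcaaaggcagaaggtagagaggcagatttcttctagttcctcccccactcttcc
Cd3e: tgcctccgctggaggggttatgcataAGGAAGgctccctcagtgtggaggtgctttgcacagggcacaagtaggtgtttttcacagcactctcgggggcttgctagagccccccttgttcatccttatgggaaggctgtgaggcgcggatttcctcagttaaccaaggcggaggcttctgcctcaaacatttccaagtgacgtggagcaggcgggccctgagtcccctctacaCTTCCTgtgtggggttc
The Cd3g stretch held 2 E-boxes and no other match. The Cd3d stretch held 1 ETS core and 1 E-box, and the Cd3e stretch held 2 ETS cores. Among 32851 such stretches of mouse genes, 29.5% held the ETS core, 44.8% the E-box, 14% the RUNX motif and 12.4% the TATA box, so the motifs found are common ones. A match in letters does not show that a factor binds there. In the other members with a sequence, the ETS core was found before Cd247, Lat, Lck and 2 of the 3 starts of Zap70. The E-box was found before Cd247, Lat, 1 start of Lck and 2 of the 3 starts of Zap70. The RUNX motif was found before 1 start of Lck and 1 of Zap70, and none of the 4 motifs was found before Cd8a.

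The labelled lineage was first set against markers of blood cell types. The deposited values are log2 expression values with no detection calls. A probe set's value is not an amount that can be compared between genes. Brightness is given as the share of all 35556 probe sets with a lower mean, a rank of the same values with the same limit. The 1035 probe sets of olfactory receptors served as a picture of dim probe sets, although 19 of them lay above the median of all probe sets. From the 5th to the 95th percentile their means ran from 1.42 to 3.82, and the median of all probe sets was 4.42. Among 16 myeloid markers, 14 lay below this median, including Mpo, Elane, Lyz2, Csf1r, Csf3r, Cd33 and Spi1. The Fc receptor Fcgr3, at a mean of 7.02, and the transcription factor Cebpa, at 4.86, lay above it. All 7 measured B cell markers and 7 of 11 NK cell markers lay below. The 4 NK cell markers above it were Klrd1, Klrk1, Fcer1g and Prf1, at means of 7.73, 4.90, 4.66 and 4.57. Klrd1 was brighter than 83.0% of probe sets, a larger share than for Lat or Zap70. Of 14 measured T cell markers 6 lay above, and Cd3g and Cd3e were the brightest of all markers listed. The 6 were Cd3g, Cd3e, Cd3d, Zap70 and Lat, which are members, and the transcription factor Bcl11b. The T cell surface markers Thy1, Cd5, Cd2 and Cd6 lay below the median. The myeloid markers Spi1, Mpo, Csf1r and Lyz2 had means of 3.44, 3.81, 3.64 and 2.61, inside the olfactory receptor range, Mpo at its upper edge. Itgam, S100a9 and Prtn3, at 3.99, 4.01 and 4.02, lay above that range and below the median. Apart from these and from Fcgr3 and Cebpa, the other myeloid markers lay inside the range. So did the T cell marker Cd8b1, at 3.28.

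**Figure D1:**
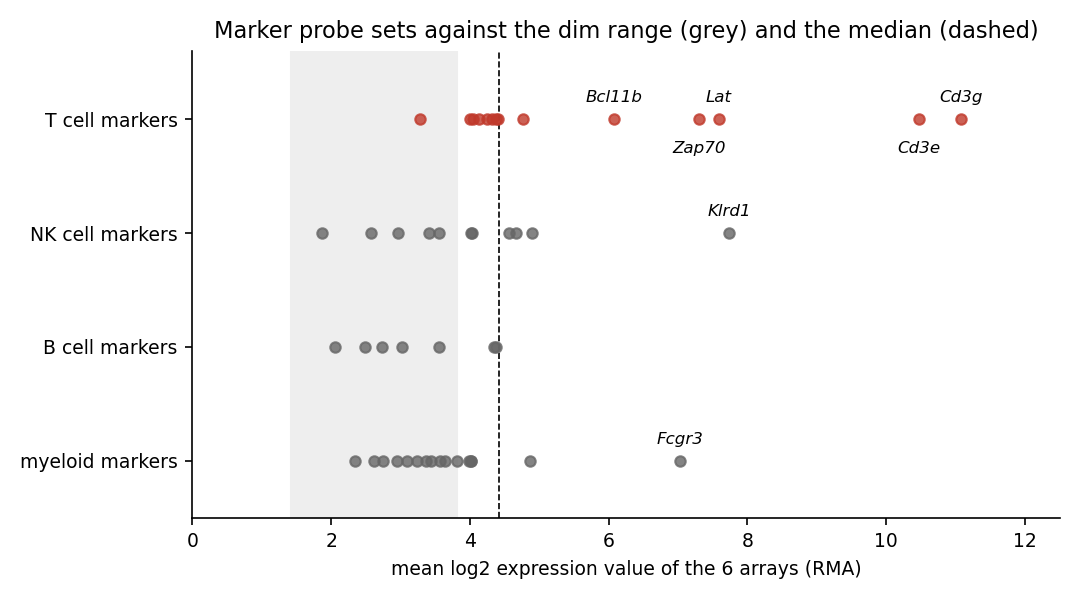
Log2 expression value averaged over all 6 arrays (horizontal axis) for each measured marker gene, 1 row per cell type, with T cell markers in red. The grey band is the 5th to 95th percentile of olfactory receptor probe sets, 1.42 to 3.82, and the dashed line is the median of all probe sets, 4.42. Cd3e and Cd3g stand far to the right, and most myeloid and B cell markers lie left of the line.

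The receptor genes fell into a bright and a dim set. Cd3g was brighter than 98.3% of probe sets, Cd3e than 97.3%, Lat than 81.7% and Zap70 than 79.2%, and no olfactory receptor probe set reached any of these 4. Cd3d (55.2%) lay just above the median. Cd8a (49.2%), Cd4 (45.0%), Cd247 (42.6%) and Cd8b1 (29.1%) lay below it. Between 7 olfactory receptor probe sets, for Cd3d, and 132, for Cd8b1, were brighter than the dim members. In PBS the order of the values was Cd3g, Cd3e, Lat, Zap70, Cd3d, Cd8a, Cd247, Cd4 and Cd8b1, and no neighbours in it overlapped over the 3 arrays. With PJ34, Cd4 stood above Cd8a, again without overlap. This is an order of probe set readings and not of transcript numbers. In bulk RNA a low value of a gene in every cell cannot be told apart from expression in few cells.

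With PJ34, Cd4 was the only member to pass the test. It rose 1.53-fold (95% confidence interval 1.39 to 1.69), while the differences of Cd3g, Lat and Cd8a were -0.05, 0.03 and 0.0033 on the log2 scale. Of the 9 measured members, limma called 1 higher and 0 lower at an adjusted p under 0.05. Of all 23412 probe sets tested, 1.72% were called higher and 1.35% lower by the same rule. At an unadjusted p under 0.05 from limma, 2 members were higher, Cd4 and Cd3e, and 1 was lower, Zap70, beside 8.95% and 7.74% of all probe sets. The methods' t-test, adjusted, also called 1 higher and 0 lower. The median log2 fold change was -0.05 over the 9 members and 0.0029 over all probe sets tested. All 3 PJ34 values lay above the 3 PBS values for Cd4 and Cd3e and below them for Zap70 and Cd3g, as was the case for 12.6% and 10.9% of all probe sets.

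**Figure D2:**
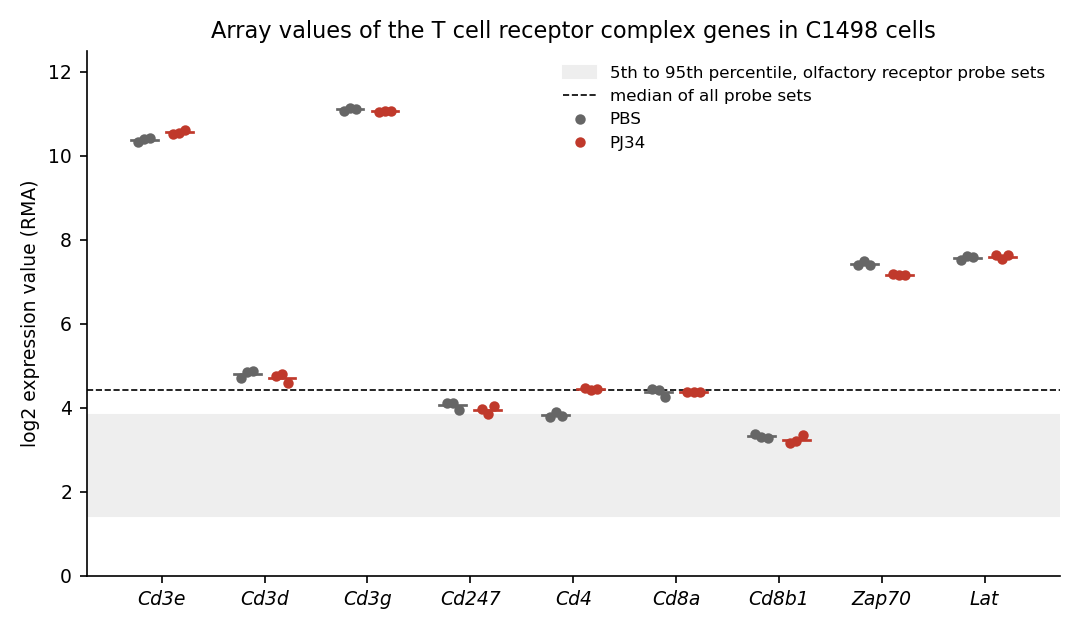
Log2 expression value (vertical axis) of the 9 measured genes on every array, 3 of PBS (grey) and 3 of PJ34 (red), with short lines at the group means. The grey band and the dashed line are the olfactory receptor range and the median of all probe sets. Cd3e, Cd3g, Zap70 and Lat lie well above both, and Cd4 moves from the edge of the band in PBS to the dashed line with PJ34.

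Among the CD3 subunits, none passed. In the complex, CD3 epsilon pairs with CD3 gamma or CD3 delta. Cd3e read 10.32, 10.39 and 10.42 in PBS and 10.51, 10.55 and 10.61 with PJ34. All PJ34 values were the higher ones. The log2 fold change was 0.18 (SE 0.064), with an adjusted p of 0.196 from limma. Its adjusted p ran from 0.0193 to 0.403 over the alternatives, and it passed only with an intensity trend and robust eBayes. Cd3g read 11.07, 11.13 and 11.10 in PBS and 11.04, 11.06 and 11.07 with PJ34. The lowest PBS value and the highest PJ34 value nearly met, and the log2 fold change was -0.05 (95% confidence interval -0.18 to 0.09). Within each array, Cd3e minus Cd3g moved from a mean of -0.73 (SD 0.036, n = 3) to -0.50 (SD 0.036, n = 3), a pair chosen after its values were seen. The change was 0.22, with an exact two-sided permutation p of 0.1, the smallest that 3 arrays against 3 allow. Differences of 3 pairs of members were computed, also Cd4 minus Cd8a and Zap70 minus Lat. Each had this p, which Benjamini-Hochberg adjustment over the 3 leaves at 0.1. Every pair held a member whose groups did not overlap by itself, so this p adds little to the single genes. Cd3d read 4.71, 4.85 and 4.88 in PBS and 4.75, 4.81 and 4.58 with PJ34, so the groups overlapped (log2 fold change -0.10, SE 0.083). Cd247 encodes the zeta chain, which carries most of the tyrosine motifs of the complex. It read 4.10, 4.10 and 3.96 in PBS and 3.97, 3.85 and 4.04 with PJ34. These groups overlapped too (log2 fold change -0.10, SE 0.076), at a level that 37 olfactory receptor probe sets exceeded.

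Among the coreceptors, Cd4 moved and the CD8 genes did not pass. Cd4 binds MHC class II and read 3.79, 3.89 and 3.81 in PBS and 4.46, 4.42 and 4.46 with PJ34. The spread within each group was small beside the gap (SD 0.052 and 0.024, n = 3 each). The log2 fold change was 0.62 (SE 0.062, adjusted p = 0.00241 from limma), and the exact two-sided permutation p was 0.1. Cd4 passed without each array in turn and in every other alternative that kept its probe set. The filter on dim probe sets removed it from the test. The PBS mean of 3.83 was close to the 95th percentile of the olfactory receptor probe sets, and the share of background in the signal is unknown. Of these 1035 probe sets, 2 were called in either direction and none rose by as much as Cd4. Their largest change in either direction, 0.57 on the log2 scale, came close to it. Most of them were dimmer than Cd4, with a median of 2.24 and 33 above Cd4, so they are not a matched comparison. Cd8a and Cd8b1, neighbouring genes, encode the chains of CD8, which binds MHC class I. Cd8a read 4.43, 4.42 and 4.26 in PBS and 4.37, 4.38 and 4.37 with PJ34, inside the PBS range, and its log2 fold change of 0.0033 had a 95% confidence interval of -0.15 to 0.16. Cd8b1 read 3.37, 3.30 and 3.27 in PBS and 3.17, 3.21 and 3.34 with PJ34, with overlap (log2 fold change -0.08, SE 0.070).

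**Figure D3:**
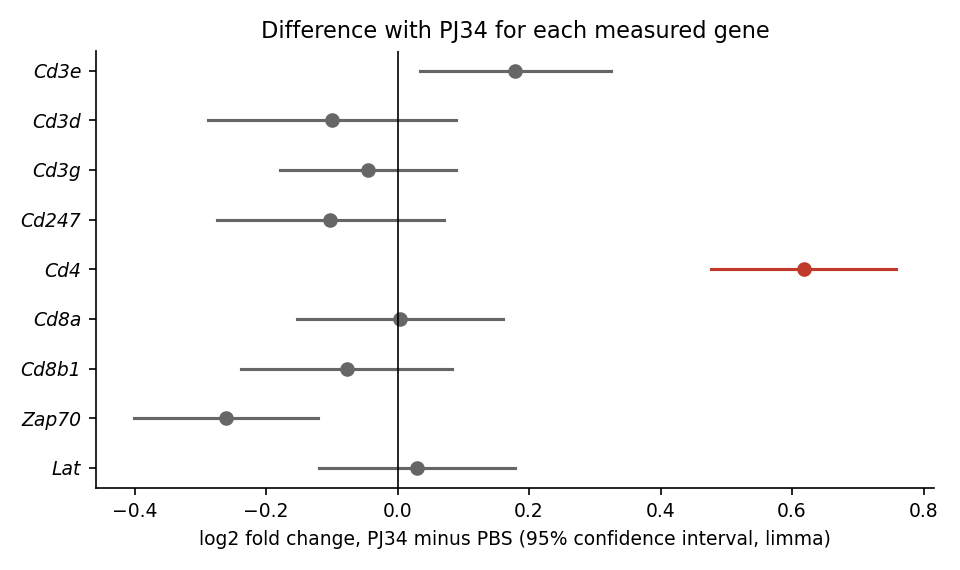
Difference of PJ34 from PBS on the log2 scale (horizontal axis), with its 95% confidence interval from limma, 1 row per measured gene. Red marks the gene that passed at an adjusted p under 0.05, Cd4 at 0.62, and grey the 8 that did not, which lie between -0.26 (Zap70) and 0.18 (Cd3e).

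Of the proximal signalling genes, Zap70 read lower with PJ34 but did not pass. It read 7.40, 7.49 and 7.40 in PBS and 7.18, 7.16 and 7.16 with PJ34, and every PJ34 value was below every PBS value. The log2 fold change was -0.26 (95% confidence interval -0.40 to -0.12), and limma gave an adjusted p of 0.0638. It passed when eBayes was robust and had an intensity trend (adjusted p = 0.0144), without dim probe sets (adjusted p = 0.0155) and with array weights (adjusted p = 0.0403). Over all alternatives its adjusted p ran from 0.0144 to 0.227, and it passed in none of the 6 fits that left out 1 array. Lat, the substrate of ZAP70, read 7.51, 7.62 and 7.58 in PBS and 7.63, 7.53 and 7.63 with PJ34. The groups overlapped, and the log2 fold change was 0.03 (95% confidence interval -0.12 to 0.18). Over the bright members Cd3e, Cd3g, Zap70 and Lat, the confidence intervals together spanned -0.40 to 0.32. For the dim members the intervals describe a signal with an unknown share of background and set no bound on the change of the transcript.

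The antigen-binding chains themselves were poorly covered. No probe set of a constant region carried a single symbol in the gene table. Of variable segments, 10 probe sets had a single symbol and 42 had several, so that the gene behind their signal is not known. None of the 52 passed limma or, after adjustment, the methods' t-test. At an unadjusted p under 0.05 from limma there were 4, beside 8.95% higher and 7.74% lower of all probe sets tested. The brightest of the single ones was Trbv1, a beta chain segment, with a mean of 4.63. Its log2 fold change was 0.34 (SE 0.090, adjusted p = 0.0893 from limma). Its PJ34 values all lay above its PBS values, as was the case for 12.6% of all probe sets tested.

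Around the complex, a few genes of the same pathway rose. Of 41 measured genes that act with the receptor, 4 rose and 0 fell in limma, with a median log2 fold change of 0.08, beside 1.72% and 1.35% of all probe sets tested. At an unadjusted p under 0.05, 13 were higher and 1 was lower, beside 8.95% and 7.74% of all probe sets. The methods' t-test, adjusted, called 2 higher, Cd28 and Sla, and 0 lower. The 4 rises in limma were the costimulatory receptor Cd28, by 1.44, the adaptors Sla and Sla2, by 1.42 and 0.89, and Lcp2, by 0.48. Sla and Sla2 dampen antigen receptor signalling. The list was drawn up with earlier results of these data known. Cd28 and Sla were picked by the study from the same arrays. Neither they nor the counts that include them are independent evidence of direction. Lcp2 encodes SLP-76, the adaptor that joins LAT to phospholipase C. It read 6.34, 6.29 and 6.23 in PBS and 6.67, 6.86 and 6.76 with PJ34, without overlap (SE 0.072, adjusted p = 0.0129 from limma). Its call was lost without PBS replicate 2 (adjusted p = 0.0608) or PBS replicate 3 (adjusted p = 0.0641), with all probe sets tested (adjusted p = 0.0597) and with the methods' t-test (adjusted p = 0.0859). Over all alternatives its adjusted p ran from 0.000934 to 0.0859. Sla2 read 6.03, 6.43 and 6.37 in PBS and 7.22, 7.24 and 7.05 with PJ34 (SE 0.11, adjusted p = 0.00619 from limma). These values did not overlap either, and Sla2 passed in all alternatives except the methods' t-test (adjusted p = 0.102). By role, 3 of 27 adaptors and effectors, 1 of 5 receptors and 0 of 9 kinases and phosphatases passed. Among the last, the log2 fold changes ran from -0.10 to 0.28, with 3 higher at an unadjusted p under 0.05, and the phosphatase Ptpn6 was the largest at 0.28 (adjusted p = 0.0639 from limma). Ptpn6 passed in 3 of 14 alternatives, and its adjusted p ran from 0.0167 to 0.214.

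**Figure D4:**
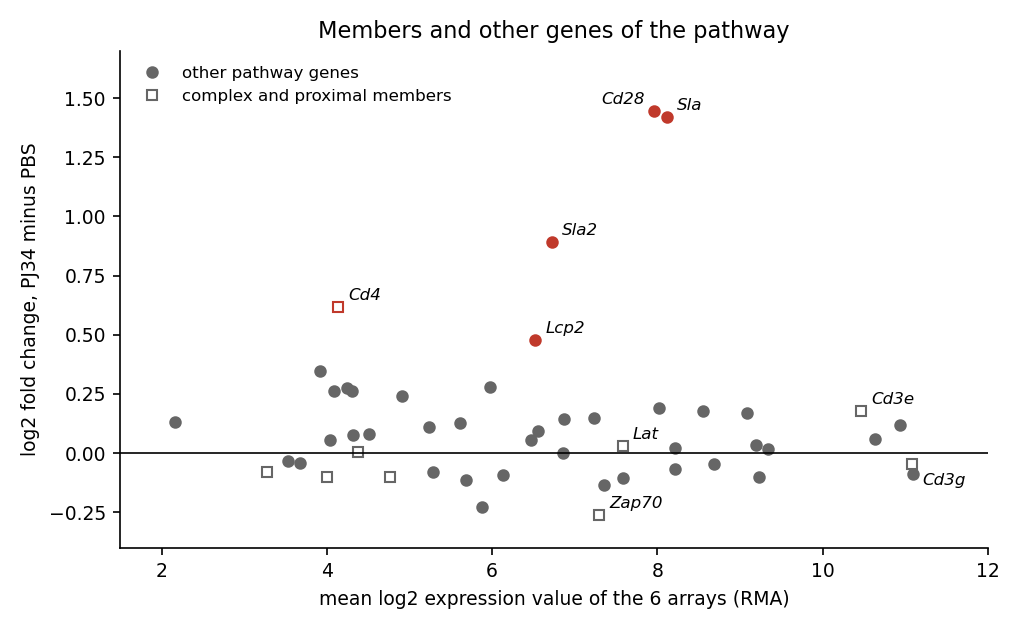
Difference of PJ34 from PBS on the log2 scale (vertical axis), plotted over the 6-array mean log2 value (horizontal axis) for the 9 members (open squares) and 41 other genes of the pathway (filled circles). Red marks genes that passed at an adjusted p under 0.05. Cd28, Sla, Sla2 and Lcp2 passed among the circles and Cd4, at a dim level, among the squares.

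Over the 6 arrays, the genes with the profile most like that of Cd4 were Ubap2, Cd7, Ddx47, Vim and Wdr26, out of 10721 genes above the median level. Pearson's r with Cd4 lay between 0.994 and 0.995 (n = 6). The 6 arrays form a PBS and a PJ34 set, and r here mostly reads the gap between these sets. The gap itself differed widely, with log2 fold changes of 1.66 for Cd7, a T cell surface protein, 0.49 for Vim, which encodes vimentin, 0.48 for Wdr26, 0.18 for Ddx47 and 0.15 for Ubap2.

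Markers of other cell types were also read beside the rise in Cd4. None of 16 myeloid markers passed limma, with 2 higher and 1 lower at an unadjusted p under 0.05. Nor did any of 7 B cell markers, with none at that level, and the methods' t-test, adjusted, called none of either list. Of all probe sets tested, limma called 1.72% higher and 1.35% lower, and 8.95% and 7.74% had an unadjusted p under 0.05. At those shares, lists this short would hold few calls, so the lack of calls says little about these cell types. The sum of the myeloid log2 values was 58.0 to 58.9 in PBS and 58.1 to 59.6 with PJ34. Of 11 NK cell markers, 1 passed, the protease Gzma, with a log2 fold change of 0.90. The sum of the NK list was 43.4 to 43.8 in PBS and 44.7 to 44.9 with PJ34, a gap that lay mostly in Gzma, and the median log2 fold change of the list was 0.04. The part of such cells in the change of Cd4 was not tested.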

How the data were processed

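RNA of C1498 cells was measured on 6 Affymetrix Mouse Gene 1.0 ST arrays, 3 after PJ34 and 3 after PBS, and samples were grouped by their labels. The authors summarised the arrays by RMA in Affymetrix Expression Console 1.3.1, per the labels, and deposited log2 expression values, already background corrected and quantile normalized. No further normalization was applied, and the number of arrays limits the precision. Correlations between arrays were 0.992 to 0.995 within groups. The platform's gene table names 21789 of 35556 probe sets by 1 gene and 1621 by several. These and 2 further probe sets named in the paper, 23412 in all, were compared by limma 3.58.1 in R 4.3.3, PJ34 minus PBS, with Benjamini-Hochberg adjustment over all of them. The fit was tested on simulated data. For each gene the probe set with the highest mean was taken, and no member had more than 1. Members and lists were chosen with earlier results of these data known. All members are named, and of the pathway genes and transcription factors those that passed, with up to 3 others. Marker genes are named for their levels and were chosen after these were seen. RefSeq promoter sequences were found for 8 of the 10 members, and a planned search of protein sequences was not run. The alternatives were a replicate block, median centring, an intensity trend with robust eBayes, all probe sets, a filter on dim probe sets, the methods' t-test, array weights, the mean of a gene's probe sets, and leaving out each array. No genome build of the array annotation is given in the sources used here.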

Additional observations from a re-analysis of the deposited data

How the results depend on the processing

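Of the 9 measured members, 1 was higher and 0 were lower, and these counts held without each array in turn, with arrays centred on their medians and with all probe sets tested. With an intensity trend and robust eBayes 2 were higher, Cd3e being added, and 1 was lower, Zap70. Without dim probe sets 0 were higher, since Cd4 is then not tested, and 1 was lower, Zap70, as with array weights. Of 41 other pathway genes 4 rose, against 2 with the methods' t-test, 5 at most in other settings, and 3 to 4 when 1 array was left out. None fell in any setting. The deviations of samples with the same replicate number from their group means had correlations of -0.013, 0.13 and -0.0092. Only the arrays numbered 2 correlated best with their own number. The labels do not say whether the numbers pair the samples, and 3 such correlations cannot settle it. With a replicate block the counts were 1 and 0 members and 4 and 0 other genes. The dim members are limited by an unknown background.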

Other observations

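Of 16 measured transcription factors that act in the T lineage, 14 lay above the median level of the probe sets. Ets1 and Notch1, brighter than 55.9% and 58.2% of probe sets, were close to Cd3d, at 55.2%. The count was not set against factors of other lineages. In limma 1 of the 16 rose and 2 fell, beside 1.72% and 1.35% of all probe sets tested. Zbtb7b, known for directing thymocytes to the CD4 lineage, read 7.02, 7.11 and 7.15 in PBS and 6.70, 6.51 and 6.43 with PJ34. It fell by 0.55 on the log2 scale (SE 0.084, adjusted p = 0.0133 from limma), so that its direction was opposite to that of Cd4. Its call was lost without PBS replicate 2 (adjusted p = 0.0634) or PBS replicate 3 (adjusted p = 0.0627), with all probe sets tested and with the methods' t-test, and its adjusted p ran from 0.00052 to 0.108. Gata3, a factor of early T cells and of helper T cells, read 9.03, 9.09 and 8.99 in PBS and 9.41, 9.35 and 9.36 with PJ34 (log2 fold change 0.34, SE 0.061, adjusted p = 0.0255 from limma). Of the 6 fits that left out 1 array it passed in 1, without PJ34 replicate 2, and over all alternatives its adjusted p ran from 0.000572 to 0.117. With a replicate block it did not pass (adjusted p = 0.0704). Bcl11b, which guards T cell commitment, read 6.23, 6.22 and 6.27 in PBS and 5.98, 5.94 and 5.82 with PJ34 (log2 fold change -0.33, adjusted p = 0.0393 from limma). It passed in none of those 6 fits nor with a replicate block (adjusted p = 0.0927), and its adjusted p ran from 0.00955 to 0.15. None of these 3 passed the methods' t-test after adjustment. The largest change of the list was that of Ets1, which did not pass (log2 fold change 0.56, SE 0.14, adjusted p = 0.0775 from limma). Its PJ34 values all lay above its PBS values. Ets1 passed in 2 of 14 alternatives, and its adjusted p ran from 0.0149 to 0.287. Runx3, which acts in the CD8 lineage, and Runx1 did not pass either (log2 fold changes -0.03 and 0.25).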
